A study of Mus musculus with 3 samples.

Results

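The wide AGO2 peaks described here are the intervals over 60 nt in the list made with the peak caller Pyicoclip, off the mitochondrial chromosome. They numbered 777 of 2068 Pyicoclip peaks, and the 4 deposited lists together held 6911. They were chosen by their measured width alone, so width and the authors' score, which come from the same peak call, are given only as a description. The libraries were 3 HITS-CLIP samples of 1 group, all of the mouse P19 stem cell line, with AGO2 pulled down by antibody clone 2D4 and no treatment named. P19 is an established embryonal carcinoma line, and in HITS-CLIP the RNA crosslinked to a protein is pulled down with it and sequenced. The lists of Pyicoclip, Piranha, PIPE-CLIP and CIMS cover the series as a whole, so neither the depth nor the value of a single library was known, and the libraries could not be compared with each other. Library inserts were selected to be shorter than a wide peak, per the labels' protocols, so each wide peak joins reads from several positions. All positions are in mm10, counted from 1.

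AGO2 is an Argonaute protein that carries a microRNA and uses it as a guide to partly matching RNA. Pairing starts from the seed, the bases near the 5′ end of the microRNA, and most known target sites lie in the 3′ untranslated regions of messenger RNAs. Once bound, Argonaute recruits TNRC6 proteins and through them the deadenylation machinery, which lowers translation and shortens the life of the message. In pluripotent cells such circuits act on cell cycle brakes, on Nodal signalling and on the LIN28 and let-7 pair. A peak shows RNA recovered with AGO2, and no input RNA was compared, so strong binding and abundant RNA cannot be told apart.

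The reference tables held the sequence of a few wide peaks that lie in short non-coding RNAs, and these are printed because they show how a wide peak lies against the annotated small RNA. The mature microRNAs, from RefSeq on GRCm38.p6, have the seed in capitals:
mmu-miR-6236: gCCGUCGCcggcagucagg
mmu-miR-6240: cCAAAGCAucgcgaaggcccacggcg
The seeds differ, so the 2 microRNAs do not share a family by seed. At Mir6240 the wide peak, chr5:114851963-114852046 on the plus strand, lay inside the annotated hairpin, and the capitals mark the mature microRNA:
Mir6240 peak: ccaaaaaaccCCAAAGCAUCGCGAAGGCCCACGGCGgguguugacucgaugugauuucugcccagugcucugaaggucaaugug
The peak of 84 nt started 10 nt before the mature sequence of 26 nt and ran 48 nt beyond it. At Mir6236 the 3 nested peaks all ended at 110281370 on chromosome 9, 1 nt before the end of the mature sequence, and began 84, 99 and 109 nt before its start. All 3 began below the lower end of the annotated Mir6236 gene at 110281287. The span of Gm39429, a gene on the opposite strand to these peaks, also covers the site. Rpph1, the RNA of ribonuclease P, which trims transfer RNA precursors, had 3 wide peaks on the minus strand. The stretch chr14:50807666-50807771, minus strand, is the part that the table holds of the Rpph1 peak at chr14:50807561-50807771:
Rpph1 peak part: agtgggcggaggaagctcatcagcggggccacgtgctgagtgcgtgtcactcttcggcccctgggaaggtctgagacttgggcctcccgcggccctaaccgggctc
The peak reached the upper end of the annotated Rpph1 span, 50807447 to 50807771, and did not pass it. The lowest start among the 3 Rpph1 peaks was 50807444, just below the span.

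The median width of the wide peaks was 120 nt, with quartiles of 91 and 179 nt and a range of 61 to 1252 nt. They covered 117855 nt, 76.9% of all nt in the list. A width over 100 nt was reached by 520 peaks, over 300 nt by 54 and over 500 nt by 6. Their authors' scores ran from 10, the floor of the list, to 229, with a median of 14 and quartiles of 11 and 20. At the edge of the rule, the 3 peaks of 61 nt scored between 16 and 61, and the 5 peaks of 60 nt just outside scored between 10 and 31. The widest peaks were those of Rn18s-rs5 at 1252 and 1216 nt, Peg10 at 912 nt, the overlapping genes Npcd and Cbx6 at 789 nt and Lin28a at 583 nt. Overlapping intervals reduced the 777 rows to 746 merged loci. Of these loci, 26 held more than 1 wide peak, up to 4, and 2 rows repeated an interval and strand already listed.

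**Figure D1:**
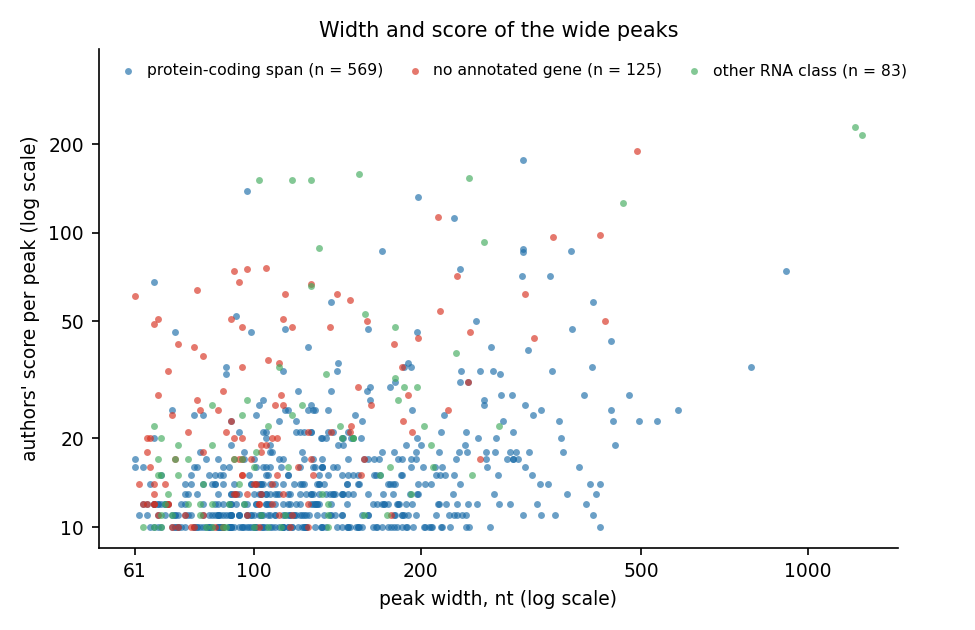
Width of each wide peak (x axis, nt, log scale) against the authors' score (y axis, log scale), 1 point per peak, coloured by whether the midpoint lies in a protein-coding span, in another class of RNA or in no annotated gene. The 2 peaks over 1000 nt are both of Rn18s-rs5, and scores of at least 50 are held by 51 peaks, 22 of them in no gene.

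The strongest wide peaks by score were mostly not at messenger RNAs. Among the 15 highest, 4 lay in protein-coding spans, 3 in ribosomal RNA, 3 in a microRNA gene, 2 in long non-coding RNA genes and 3 in no gene. Rn18s-rs5, a copy of the ribosomal RNA precursor, scored 229 at chr17:39847123-39848338 and 215 at chr17:39845855-39847106. A site in no gene, chr3:5860337-5860827 on the plus strand, scored 189. Lars2, the gene that charges mitochondrial leucine transfer RNA, scored 177 at chr9:123461884-123462189, on the strand of the gene and 639 nt from its end. A peak at chr4:53860628-53860782 scored 158, and its midpoint fell both in a ribosomal RNA gene, LOC115490001, and in the span of Tmem38b, an ion channel gene. Gm15564 and Gm36876, both long non-coding RNA genes, scored 153 and 126, and the Gm36876 peak was on the opposite strand to the gene. Mir6236 scored 151 in each of its 3 nested peaks. Il31ra, a cytokine receptor gene, scored 132 and Wdr92 112. Measured along the strand of the peak, these coding sites lay 56327 and 13805 nt from the end of the span, in that order. For ribosomal RNA, whose copies are nearly identical, the site of origin is uncertain. The other high-scoring sites were not checked for sequence that recurs elsewhere in the genome. A gene name there gives the place of the peak and does not settle which transcript was bound.

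Most wide peaks fell in protein-coding genes. Each peak took 1 class, with ribosomal, microRNA and other small RNA genes ranked above protein-coding genes, and long non-coding RNA genes below. The midpoint lay in a protein-coding span, with no higher-ranked gene, for 569 of 777, 73.2% (95% Wilson interval 70.0 to 76.2). Of Pyicoclip peaks of 31 to 60 nt, here called middle-width, 43.7% did so (37.3 to 50.4), and of peaks of at most 30 nt, here called narrow, 51.8% (48.8 to 54.7). Shares were compared by two-sided Fisher's exact tests, with p-values adjusted for 12 class tests by the Benjamini-Hochberg method. The wide share was higher than the middle-width one (exact test, adjusted p = 9.68e-15) and the narrow one (adjusted p = 3.26e-20). Only 16.1% of wide peaks lay in no gene (13.7 to 18.8), against 34.4% of middle-width (exact test, adjusted p = 3.62e-08) and 37.0% of narrow peaks (adjusted p = 8.79e-23). Where a wide peak lay in no gene, the nearest protein-coding span was a median of 42203 nt away, and 21 of 125 lay within 5000 nt of one. That 16.8% (11.3 to 24.3) had an interval that overlapped the 17.6% of narrow peaks in no gene (14.2 to 21.6). These p-values describe the spread over peaks of 1 pooled list, since peaks are not replicates of the experiment. Counting each merged locus once left all 12 calls on the same side.

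**Figure D2:**
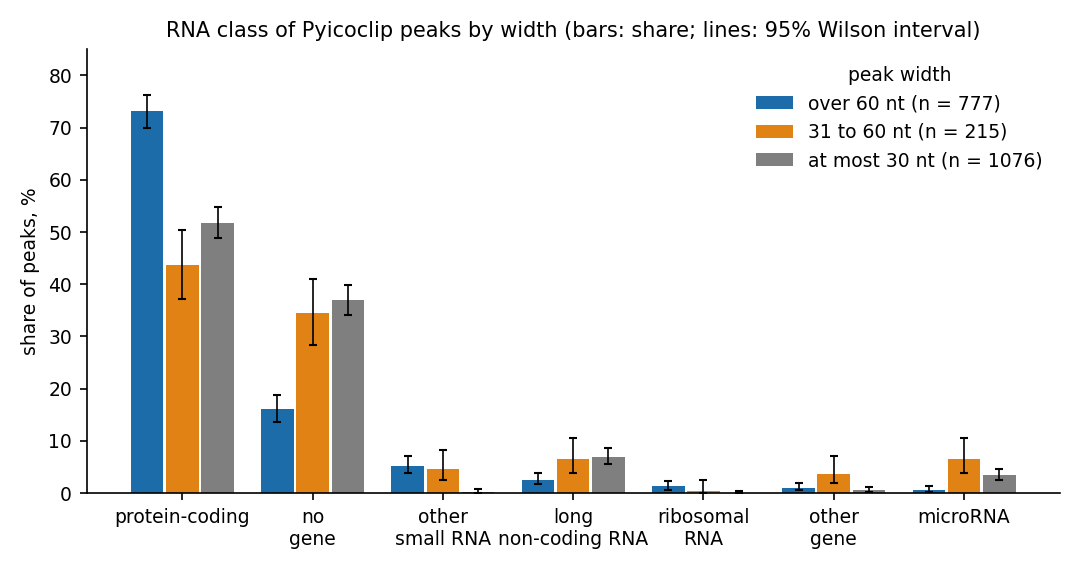
Share of Pyicoclip peaks (y axis, percent) whose midpoint lies in each RNA class (x axis), for 777 wide, 215 middle-width and 1076 narrow peaks, with 95% Wilson intervals as lines. The wide bar is the tallest for protein-coding spans at 73.2% and the lowest for no gene at 16.1%.

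Small structural RNAs came next among annotated sites. Genes of small RNAs other than microRNAs held 41 wide peaks, 5.28% (3.91 to 7.08), against 0.279% of narrow peaks (exact test, adjusted p = 1.56e-12). No difference from middle-width peaks was detected, which had 4.65% (exact test, adjusted p = 0.862). By type, 20 lay in small nuclear RNA genes, 12 in small nucleolar RNA genes, 4 in genes of the ribonuclease P type, 3 in Rmrp, and 1 each in a Y RNA and a transfer RNA gene. Rn7sk, the 7SK RNA that holds back the elongation factor P-TEFb, scored 53 at chr9:78175299-78175457. Rny1, a Y RNA gene, scored 35. Rnu3a, a U3 RNA gene counted here as small nuclear because the annotation types it so, scored 30 and 17 in a pair of overlapping peaks. Rmrp, the RNA of ribonuclease MRP, had overlapping peaks of 22, 22 and 15, one of which, 43492785 to 43493061 on chromosome 4, covered the whole gene. Rnu11 and Rnu12, both of the minor spliceosome, had scores of 10 and 20, the latter listed once with and once without a strand. Many of these genes have near-identical copies, so the gene of origin can be uncertain.

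MicroRNA genes went the other way. They held 4 wide peaks, 0.515% (0.200 to 1.32), which are the 3 of Mir6236 and the 1 of Mir6240 shown above. These 4 are microRNA sites by annotation only. Their sequences were not compared with ribosomal or other RNAs, and whether they act as guides was not tested. Middle-width peaks had 6.51% (3.92 to 10.6) and narrow peaks 3.44% (2.50 to 4.70), both higher by the exact test (adjusted p = 9.38e-07 and 1.31e-05). The mature sequences printed above are 19 and 26 nt long, shorter than any wide peak. The width rule by itself keeps out a peak as short as such a sequence. These microRNA tests therefore cannot show how often AGO2 was bound at microRNAs. Peaks classed as long non-coding RNA, with no higher-ranked gene at the midpoint, were 2.57% of wide peaks. That was fewer than the 6.51% of middle-width (exact test, adjusted p = 0.0113) and the 6.97% of narrow peaks (adjusted p = 2.28e-05). Peaks in both a protein-coding and a long non-coding span are left out of these shares. Whether the difference holds without this ranking was not tested. Ribosomal RNA held 10 wide peaks, 1.29% (0.701 to 2.35), 1 middle-width peak (exact test, adjusted p = 0.516) and 0 of 1076 narrow peaks (adjusted p = 2.17e-04).

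Strand set the wide peaks apart from the narrower ones. In all, 713 wide peaks had a strand, and 48.1% of them were on the minus strand (44.5 to 51.8), against 48.7% of the narrower peaks (Fisher's exact test, p = 0.814). The direction of the gene was read from the RefSeq promoter table, which gives a strand for 79.9% of protein-coding genes. Of 376 stranded wide peaks whose only gene span was protein-coding with a known strand, 348 were on the strand of the gene, 92.6% (89.4 to 94.8). Middle-width peaks were on that strand in 33 of 53 cases, 62.3% (48.8 to 74.1). Narrow peaks were on it in 203 of 396 cases, 51.3% (46.4 to 56.1), an interval that includes an even split. The wide share was higher than both by Fisher's exact test with adjustment over 2 tests (adjusted p = 2.88e-08 and 1.13e-39). These tests take peaks of the same gene as separate. With the highest-scoring peak of each gene counted once, the shares were 91.4% of 245 genes, 62.3% of 53 and 51.7% of 373, with no test.

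The 28 wide peaks on the opposite strand are described beside the 348 sense ones, with no test. Their median score was 18.5 against 13, and their median widths were 129.5 and 127 nt. A Piranha peak overlapped 17 of the 28, 60.7% (42.4 to 76.4), against 24.4% of the sense peaks (20.2 to 29.2). Only 3 of the 28 lay in the last 10% of the gene span. Jarid2, a partner of Polycomb repressive complex 2, gave the highest antisense score of 87 at chr13:44869570-44869739, on the minus strand of a plus-strand gene. A second Jarid2 peak beside it, 44869768 to 44870046, scored 28 and was antisense too. The remaining Jarid2 peak, at 44919906 to 44920107, was sense, 1637 nt from the gene end, and scored 16. Zc3h7a scored 86, Tmtc2 75, Arhgap21 58, Gnb1l 52 and Dcaf10 50, all antisense. Mfsd4a had 3 wide peaks with scores of 14, 13 and 11, none of them on its own strand. These antisense peaks cannot be assigned to the transcript of the named gene.

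Sense wide peaks gathered at the 3′ ends of genes. Of the 348, 225 had their midpoint in the last 10% of the gene span, 64.7%, and 39 in the 10% before it, so that the last 20% held 264. The median distance from the midpoint to the end of the span was 2034.5 nt, with quartiles of 523.5 and 4359.75 nt, and 87 peaks lay within 500 nt of it. For the test, each gene was counted once by its highest-scoring peak in each width class, and the direction was that of the gene or, where the table had none, of the peak. The last 10% then held 213 of 327 genes with wide peaks, 65.1% (59.8 to 70.1). For middle-width peaks it held 14 of 81, 17.3% (10.6 to 26.9), and for narrow peaks 63 of 482, 13.1% (10.4 to 16.4). Both differed from the wide share by Fisher's exact test with adjustment over 2 tests (adjusted p = 4.20e-15 and 7.00e-54). Restricted to peaks on the gene strand, the shares were 69.3% of 225 genes (63.0 to 75.0), 24.2% of 33 and 9.60% of 198. Without exons or untranslated regions in the tables used, the end of the span stands in for the 3′ untranslated region, and a gene with several ends is measured to the last of them.

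**Figure D3:**
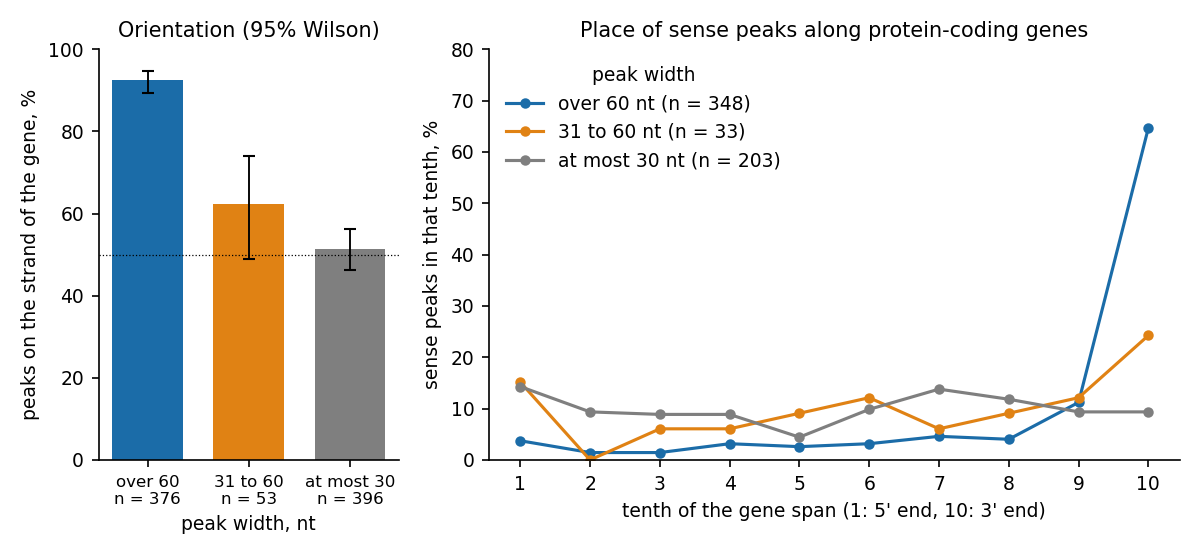
Left, percent of peaks on the strand of their protein-coding gene (y axis) for the 3 width classes (x axis), with 95% Wilson intervals and a dotted line at an even split; right, percent of sense peaks (y axis) in each 10% step of the gene span (x axis, 5′ to 3′). Wide peaks reach 92.6% sense and 64.7% in the last 10%, where narrow sense peaks have 9.36%.

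A small set of sense wide peaks lay at the start of the gene instead. The first 10% held 13 of the 348, in 11 genes. Btg1, an antiproliferative gene, had a peak scoring 16 at chr10:96617022-96617154, against an annotated gene start of 96617001. Ywhae, a 14-3-3 protein gene, scored 11 with its midpoint at 0.445% of the span, and Desi2 scored 16 at 0.482%. Xpo1, which exports proteins and RNAs from the nucleus, scored 14 at 1.42% of the span, and Fem1b, a substrate receptor of a ubiquitin ligase, scored 13 at 1.35%. Rplp2, a ribosomal stalk protein gene, Nup88, a nuclear pore gene, Otud4, Clasp2, Col6a6 with 2 peaks and Il31ra with 2 peaks made up the rest. Most of these scored low, from 10 to 18, with the 132 of Il31ra as the exception.

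Wide peaks lay in few of the annotated genes. They fell in 475 gene spans, 379 of them protein-coding, which is 1.73% of the 21887 protein-coding genes on placed chromosomes. By rows, a single wide peak was found in 330 genes, 145 genes had at least 2 and 49 at least 3. These counts take in nested rows and both strands, and a peak in overlapping spans counts for each. With overlapping peaks merged, 127 genes had at least 2 and 41 at least 3. Slc2a3, a glucose transporter gene, had the most with 10, all on the minus strand, with scores of 12 to 28 and widths of 61 to 475 nt. Of these, 5 lay between 122727824 and 122729935 on chromosome 6, next to the lower end of the span at 122727809. Peg10, a retrotransposon-derived imprinted gene, had 8, with scores of 16 to 74, between 4754295 and 4760516 on chromosome 6. Its widest and highest-scoring peak, chr6:4759308-4760219, held 5 Piranha peaks, 2 PIPE-CLIP clusters and 3 CIMS peaks. Gigyf1, a translational repressor gene, had 7 on its own strand with scores of 14 to 27, and 5 of them lay 51 to 1891 nt from the gene end. Scd2, a fatty acid desaturase gene, had 7 on the plus strand, with scores of 10 to 23.

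Other genes with several wide peaks showed different layouts along the span. Eef2, which encodes the elongation factor that moves the ribosome along, had 7 rows in 5 merged loci, spread from 240 to 4357 nt from the gene end, with scores of 10 to 17. Zbtb7a, a transcriptional repressor gene, had 6 within 3098 nt of its end, with scores of 14 to 47. Ccng2, the cyclin G2 gene, had 5 at 185 to 5306 nt, with scores of 15 to 25. Ddx5, an RNA helicase gene, had 5 rows in only 2 merged loci, at 138 to 1619 nt. Zfp367 had 4, all between 711 and 2120 nt from the end. Lin28a had 4 rows in 3 merged loci, between 75 and 1574 nt, with 3 of the rows lacking a strand. Lcor, a nuclear receptor corepressor gene, was unlike these: its 5 sense peaks lay 33860 to 43521 nt before the end of the span, 4 of them within 41561588 to 41562338 on chromosome 19. Tnrc6a combined both patterns, with peaks at 1725 and 1951 nt from the end and others at 24671, 25304 and 32744 nt. Rora, whose long span puts all 4 of its peaks in the last 10%, had them 5033 to 8606 nt from the end. Aebp2 had 3, 1 of them without a strand, at 25694 to 26519 nt.

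**Figure D4:**
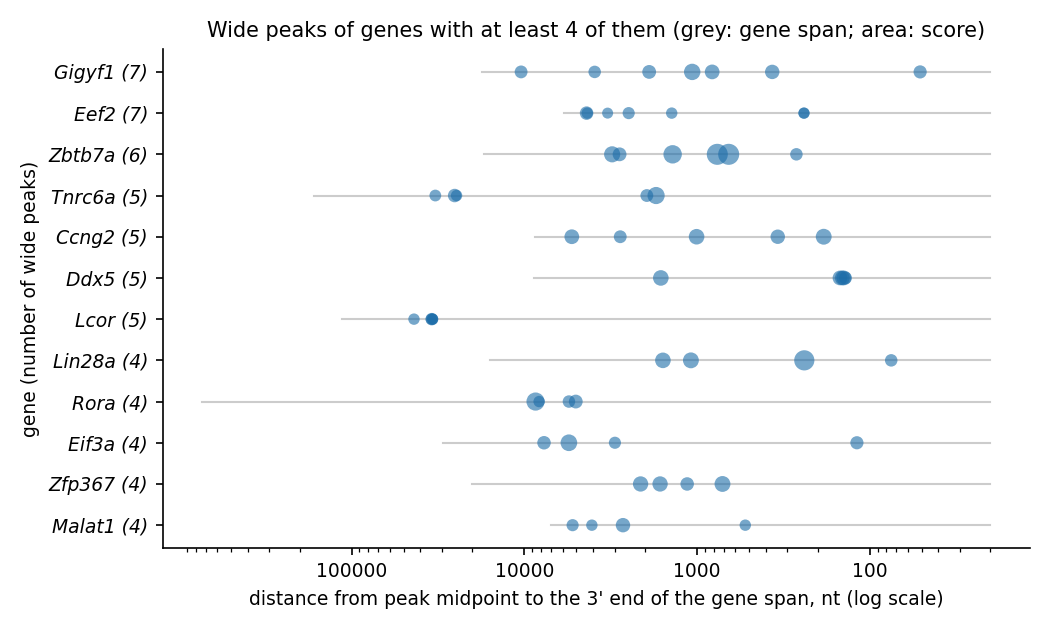
Distance from the midpoint of each wide peak to the 3′ end of the gene span (x axis, nt, log scale, 3′ end to the right) for the 12 genes with at least 4 wide peaks and a known strand (y axis), with the span in grey and the area of each point set by the score. Gigyf1, Zbtb7a, Ccng2, Ddx5, Eef2 and Lin28a have peaks close to the end, the nearest at 51 nt, while the 5 peaks of Lcor lie at 33860 nt or more.

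Wide peaks had close neighbours. The gap to the nearest other Pyicoclip peak on a matching strand had a median of 5411 nt for wide peaks, 367141 nt for middle-width and 728647 nt for narrow peaks. The wide median was 23103 nt once overlapping rows were merged, 3035.5 nt for peaks over 80 nt and 1798.5 nt for peaks over 100 nt. A neighbour lay within 1000 nt of 305 wide peaks, 39.3% (35.9 to 42.7), and that nearest neighbour was itself wide in 286 of the 305 cases. For narrow peaks the share was 2.70% (1.88 to 3.84). An overlap with another Pyicoclip peak accounted for 58 wide peaks. Nested rows are examples, such as Zbtb7a at 81151272 to 81151647 and at 81151487 to 81151647 on chromosome 10, both with a score of 47. Slc2a3 shows unnested neighbours, with 4 peaks on chromosome 6 that end or start at 122728601 and 122728775, 122729249 and 122729264, and 122729711 and 122729736. The sources used here do not give how far apart reads must be to start a new peak, so numbers of peaks per gene are not numbers of binding sites.

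The other peak callers covered the wide peaks unequally. All lists come from the same reads as the widths, so the shares are a description with no test. On the same strand with at least 1 nt shared, PIPE-CLIP clusters overlapped 590 wide peaks, 75.9% (72.8 to 78.8), where 30.7% of all Pyicoclip peaks had such an overlap. PIPE-CLIP overlapped 20.0% of middle-width peaks and 1 of 1076 narrow peaks. Piranha went the other way, with 32.6% of wide peaks (29.4 to 35.9), 64.2% of middle-width and 85.7% of narrow peaks, and 63.5% over all widths. CIMS overlapped 8.62% of wide peaks (6.85 to 10.8), 6.05% of middle-width and 2.23% of narrow peaks, and 5.03% over all widths. Both this rule and one that requires the midpoint of the Pyicoclip peak to lie in the other peak depend on the width of the interval. By midpoint, PIPE-CLIP held 72.6% of wide, 20.0% of middle-width and 1 of 1076 narrow peaks. CIMS then held 2.45% of wide, 6.05% of middle-width and 2.23% of narrow peaks, so that the order of wide and middle-width peaks reversed. Piranha held 9.52% of wide, 26.0% of middle-width and 47.9% of narrow peaks by midpoint. No other list reached 130 wide peaks, 16.7% (14.3 to 19.5), and PIPE-CLIP alone reached 370. All of the other lists met at 38 wide peaks. Plus-strand wide peaks overlapped PIPE-CLIP in 68.9% of cases (64.0 to 73.4) and minus-strand ones in 83.1% (78.8 to 86.7).

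Inside the wide peaks the callers marked parts of different size. PIPE-CLIP clusters covered a median of 93.7% of the wide peak they overlapped and covered 82 of the 590 in full. Piranha peaks covered a median of 18.7%, and 220 of the 253 wide peaks with Piranha held a single Piranha peak. Of 269 stranded pairs, with the wide peak cut into 3 equal parts, the Piranha midpoint lay in the 5′ part in 66, in the middle part in 96 and in the 3′ part in 107. CIMS peaks covered a median of 26.1%, and 57 of 67 wide peaks held a single one. The most were held by the Rn18s-rs5 interval of 1216 nt, with 7 Piranha and 8 CIMS peaks. Read from the other side, wide peaks took in 53.8% of the CIMS list, 21.1% of Piranha and 18.8% of PIPE-CLIP.

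The make-up of the wide peaks shifted with score. In the lowest band, scores of 10 and 11, 195 of 230 peaks lay in protein-coding spans, 84.8% (79.6 to 88.9), and 6.96% in no gene. At scores of 50 and over, 17 of 51 lay in protein-coding spans, 33.3% (22.0 to 47.0), and 22 in no gene, 43.1% (30.5 to 56.7). Overlap with PIPE-CLIP went from 57.0% to 96.1% between these bands and overlap with Piranha from 6.09% to 94.1%. The sense share showed no steady shift below a score of 50 and was lower in the highest band. Of peaks that could be read, 115 of 119 were sense in the lowest band, 96.6% (91.7 to 98.7). At scores of 12 to 14, 15 to 20 and 21 to 49 the shares were 92.2%, 96.6% and 87.7%. In the highest band 5 of 11 were sense, 45.5% (21.3 to 72.0). The last 10% of the span held 66.1% of sense peaks in the lowest band and 72.0% at scores of 21 to 49, but 1 of 5 at scores of 50 and over. Width did not follow the same course, since the sense share was 93.0% at 61 to 90 nt and 96.0% over 300 nt.

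**Figure D5:**
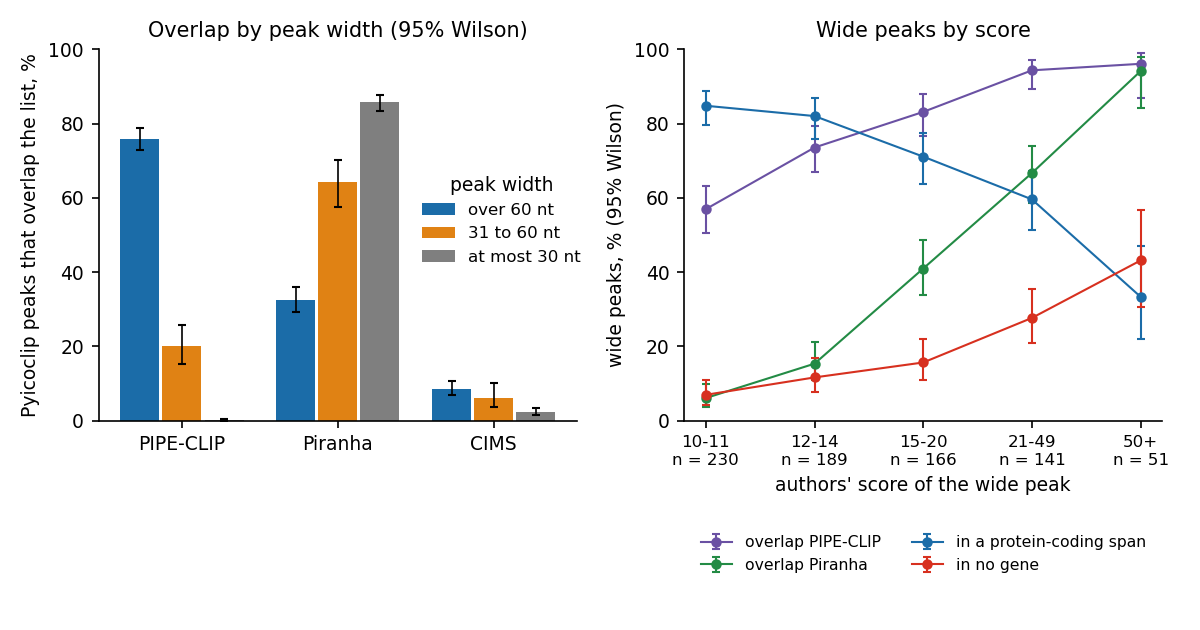
Left, percent of Pyicoclip peaks (y axis) that overlap each other list (x axis) by peak width; right, percent of wide peaks (y axis) that overlap PIPE-CLIP or Piranha or lie in a protein-coding span or in no gene, by band of the authors' score (x axis), all with 95% Wilson intervals. The protein-coding share goes from 84.8% in the lowest band to 33.3% in the highest, while the Piranha overlap goes from 6.09% to 94.1%.

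Sites found by all 4 callers were a mixed group. Of the 38 wide peaks in all other lists, 15 lay in protein-coding spans, 13 in no gene, 3 each in ribosomal, other small and long non-coding RNA genes, and 1 in a microRNA gene. Among the coding ones whose strand could be read, Lars2, Slc38a2, Peak1 and Gigyf1 were sense, and Zc3h7a, Arhgap21 and Jarid2 antisense. Slc38a2, an amino acid transporter gene, scored 34 at chr15:96687786-96687898, 450 nt from its end. Bsg, which encodes the transporter chaperone basigin, scored 46 at chr10:79711488-79711586, and Slc2a3 28 at chr6:122728775-122729249. Lin28a and Ccng2 had peaks without a strand there, with scores of 25 and 21. The sites in no gene included chr13:9834303-9834517 with a score of 113 and chr6:3201259-3201680 with 98. By contrast, of the 370 wide peaks shared with PIPE-CLIP alone, 86.5% lay in protein-coding spans (82.6 to 89.6) and 194 of 203 were sense.

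Genes of the silencing pathway itself carried wide peaks. The gene lists that follow were chosen with earlier results of these data known, so the counts are a description. Of all protein-coding genes, 1.73% had a wide peak, and of all long non-coding RNA genes 0.291%. The lists were not matched to other genes on span length or RNA abundance. Peaks on either strand or with no strand are counted. Over all lists, 55 of 248 members had a wide peak. A wide peak on the strand of the gene was found for 38 members, where genes without a listed strand drop out. Among RNA silencing effectors, 7 of 25 had one. Tnrc6a, a scaffold that links Argonaute to deadenylases, had 5 with a highest score of 30, and Tnrc6b and Tnrc6c had 2 each, scoring up to 12 and 13. Ago2 itself had 2, with scores of 15 and 11, the first at chr15:73105524-73105671. Ago1, a related Argonaute gene, had 1 with a score of 10, 550 nt from its end, and Cnot6, a deadenylase gene, had 2.

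Cell cycle genes with a wide peak were 7 of 28, and both brakes and drivers were among them. Cdkn1b, the gene of the inhibitor p27, had 2 sense peaks, at chr6:134924288-134924541 with a score of 20 and at chr6:134925340-134925445 with 12. Lats1, a Hippo pathway kinase gene, had 3 sense peaks scoring up to 18, within 2144 nt of its end. Mcl1, an anti-apoptotic gene, had 2, while E2f3 and Wee1 had 1 each with scores of 11 and 10. Signalling genes of the Nodal, TGF-beta, Wnt and Notch pathways had wide peaks in 5 of 30. Lefty1, a secreted inhibitor of Nodal, had 3 and the highest score of the list, 58 at chr1:180937978-180938387, 219 nt from the end of its span. Skil, a repressor of SMAD signalling, had 4 with scores up to 18. Acvr1b, an activin receptor gene, Notch2 and Hes1, a Notch target, followed with highest scores of 16, 15 and 13.

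Of pluripotency and LIN28/let-7 genes, 4 of 24 had a wide peak. Lin28a, which blocks the maturation of let-7, had 4 rows in 3 merged loci, with scores of 14, 24, 25 and 43. Of these rows, 1 was sense and 3 had no strand, the highest-scoring one among them. Trim71, a let-7 target and RNA-binding ubiquitin ligase gene, had 3 sense peaks within 919 nt of its end, scoring up to 17. Igf2bp1, a gene of an RNA-binding protein of embryonic cells, had 5 with scores of 10 to 15, and Mycn 1 with 10. Chromatin regulators had wide peaks in 9 of 27. After Jarid2 with its mixed strands came Kdm6b, a histone demethylase gene, with 23 and Suz12, a Polycomb subunit gene, with 18, at 417 and 418 nt from the gene end. Cbx5, Cbx7, Tet3, Chd1, Kdm2a and Dnmt3a scored between 11 and 13.

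Translation factors and ribosome biogenesis genes had wide peaks in 8 of 24. Npm1, the nucleophosmin gene, had 4, with 68 at chr11:33159932-33159997 inside the gene and 41 in each of a nested pair at its end. Eif3a, a subunit of an initiation factor, had 4 scoring up to 28, Ncl scored 34 and Eef1a1 18. Both wide peaks of Eif4a2, with scores of 27 and 12, had their midpoints in small nucleolar RNA genes inside the span, Snora81 and Snord2. The only Eif4a1 peak likewise had its midpoint in LOC115487878. Transporter genes had 6 of 20, led by Slc2a3, Bsg and Slc38a2, with Slc16a1, Slc25a3 and Slc2a1 scoring 12, 11 and 10. Cytoskeleton and housekeeping genes had 5 of 24, namely Hspa5, Pkm, Hsp90ab1, Tubb5 and Actb, with highest scores of 11 to 17. The splicing list, made mostly of Hnrnp and Srsf family genes, had 0 of 28, and 1 of them had a narrower Pyicoclip peak. Core splicing genes outside that list did have wide peaks, and Sf1, Sf3b5 and Prpf8, named after their values were seen, scored 15, 12 and 10. Long non-coding RNA genes of the list had 4 of 18. Malat1, a nuclear RNA, had 4 sense peaks with scores of 11 to 20, and the midpoints in Snhg1, Snhg12 and Gas5 lay in small RNA genes inside the spans.

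Markers were read only as a check of the labelled cells, since a peak is not a level of RNA. Of 10 markers of undifferentiated cells, Lin28a and Trim71 had a wide peak, and Pou5f1 was added when a peak of any list counted. The others, including Sox2 and Nanog, had none. Of 5 neural markers Map2 had a peak in some list and none a wide one, and no peak was found at the 4 muscle or the 4 endoderm markers.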

How the data were processed

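The authors deposited 4 peak lists for 3 AGO2 HITS-CLIP libraries. The submitters' processing notes name cutadapt, Novoalign and build mm10. Versions, caller settings and how libraries were pooled: not given in the sources used here. Each deposited score is the authors' value per peak, with no stated unit.

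Peaks were assigned to RefSeq gene spans of GRCm38.p6, the coordinates of mm10, by their midpoint on either strand. A peak in several spans took 1 class, in the order ribosomal, microRNA, other small, protein-coding, long non-coding, other and none, and Rn18s-rs5 was counted as ribosomal. Gene strands came from the RefSeq promoter table. Peaks without a strand matched either. Of 249 gene list entries, 248 entered the counts, with 18 of 19 in the long non-coding list and all entries of the other lists. Members and lists were chosen with earlier results of these data known. Named genes were those of the highest-scoring, widest, all-list and small RNA peaks, those with at least 3 wide peaks and the leading list members, except 1 that is not reported here, plus antisense, 5′-end and nested examples named after their values were seen. A planned test of midpoint overlap was not run, since the lists share their reads. Share tests and overlaps were tested on simulated data. No library had a value of its own, and intervals cover counting error over peaks only. Python 3.11.15, numpy 2.4.6, pandas 2.3.3, scipy 1.17.1 and matplotlib 3.10.9 were used.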

Additional observations from a re-analysis of the deposited data

How the results depend on the processing

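Calls on protein-coding, microRNA, long non-coding and no-gene shares, on the last 10% of the span and on sense orientation kept their direction and side of the threshold under each alternative tried: wide peaks over 80 or 100 nt, any overlap with the span, merged peaks, other ends of the span and, chosen after seeing the data, stranded peaks only, gene-strand peaks only, merged peaks for orientation and scores of at most 20. The rank order of the RNA classes was the same in each alternative. Differences that were not called changed sign: other small RNA against middle-width peaks, -0.30 points over 80 nt and -1.19 over 100 nt, and minus strand, 0.333 and 0.470 points. Shares of wide peaks in Piranha were 9.52% by midpoint and 43.7% among peaks with scores of at least 12. In PIPE-CLIP they were 79.9% over 80 nt, 83.7% over 100 nt, 72.6% by midpoint and 83.9% at such scores, and in CIMS 2.45% by midpoint and 11.3% at such scores. The median gap to the nearest peak was 3035.5 nt over 80 nt, 1798.5 nt over 100 nt and 23103 nt after merging. On the strand of the gene, 247 protein-coding genes had a wide peak, where genes without a listed strand drop out. No paired analysis was possible because all libraries form 1 group, and none could be left out of pooled lists. No depth was known.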
